A study of Capra hircus with 20 samples.

Results

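TTR, KL, CLIC6, AQP1, OTX2, FOLR1 and SLC4A5 are 7 genes known from the choroid plexus, and their levels were read in the hypothalamus of growing goats, first library by library and then by stage. They were chosen by name from what is known of the tissue, and each was matched by its NCBI Gene ID to 1 of the 21071 genes with deposited values. The samples were hypothalamic tissue of 20 female Jining grey goats, a prolific Chinese breed that matures early, kept under the same feeding. The goats were untreated and formed 4 groups of 5 by age, namely D1 (1 day), M2 (60 days), M4 (120 days) and M6 (180 days). Each goat gave 1 strand-specific library depleted of rRNA, so that the libraries of a stage come from different animals. The values are FPKM (fragments scaled by the exon length of the gene and by the mapped fragments of the library), which the authors calculated.

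The choroid plexus is a folded epithelium over a vascular core that hangs into the brain ventricles and secretes cerebrospinal fluid. The third ventricle, which the hypothalamus borders, carries such a plexus in its roof, so that a dissection may or may not include it. Its epithelial cells take up salt from the blood side and pass it with water into the ventricle. They also release transport proteins, of which transthyretin is the best known. Among the 7 genes, TTR encodes transthyretin, the carrier of thyroid hormone and of the retinol-binding protein, and KL encodes klotho, a co-receptor of the hormone FGF23. FOLR1 encodes the folate receptor alpha, AQP1 a water channel, SLC4A5 a sodium bicarbonate cotransporter and CLIC6 a chloride intracellular channel protein. OTX2 encodes a homeodomain transcription factor needed to form and keep the plexus and also used in the midbrain, the eye and the pineal gland. AQP1 is also known from small vessels and red cells outside the plexus.

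On the ARS1.2 goat genome, TTR lies on chromosome 24 from 25850576 to 25859280. KL lies on chromosome 12 from 58608960 to 58648682, and CLIC6 lies on chromosome 1 from 41052572 to 41113309. The annotation places AQP1 on chromosome 4 from 54819355 to 54832768 and OTX2 on chromosome 10 from 34027297 to 34037035. FOLR1 is on chromosome 15 from 31622904 to 31634159, and SLC4A5 is on chromosome 11 from 10172657 to 10266136. All 7 are therefore on different chromosomes, and 0 other annotated genes overlap any of them.

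The summed FPKM of a library ranged from 260199 to 377479 over the 20 libraries. The paper reports read numbers and mapping rates of the sequencing, which were not used here. The number of reads behind each FPKM value could not be recovered, so that the spread between goats carries the error. In M2 replicate 3, KLHDC1 alone took 23.9% of the summed FPKM, against 9.83% in M6 replicate 3, the only other library in which this gene led. The label of the tissue was looked at through genes that mark the hypothalamus. The hormone gene AVP was below 1 FPKM in 7 of 20 libraries and at 5 FPKM or more in 5, and the transcription factor gene NKX2-1 was below 0.1 FPKM in 7. TCF7L2 and GBX2, which mark the thalamus, reached 86.3 and 18.2 FPKM in M4 replicate 2, against medians of 10.8 and 0.303 FPKM over the 20 libraries. The part that differences in the dissected piece had in the values below was not tested.

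The 7 genes were low to intermediate among the genes of the hypothalamus. On the FPKM scale, which allows levels of genes to be compared per length, their means over 20 libraries ran from 5.08 FPKM for TTR through 2.58 for OTX2, 0.992 for KL, 0.636 for SLC4A5, 0.513 for AQP1 and 0.170 for FOLR1 to 0.0255 for CLIC6. The mean of TTR was above that of 60.3% of the 21071 genes, and that of CLIC6 above 16.3%. The SD over the 20 libraries was 5.84 FPKM for TTR and 2.28 for OTX2, so that the order of these neighbours was not fixed from goat to goat. TTR was above OTX2 in 13 of 20 libraries, OTX2 above KL in 14 and KL above SLC4A5 in 15. SLC4A5 was above AQP1 in 11 of 20 libraries. AQP1 was above FOLR1 in 17 libraries, while FOLR1 was above CLIC6 in 7 only, because it was listed at 0 in 13.

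**Figure D1:**
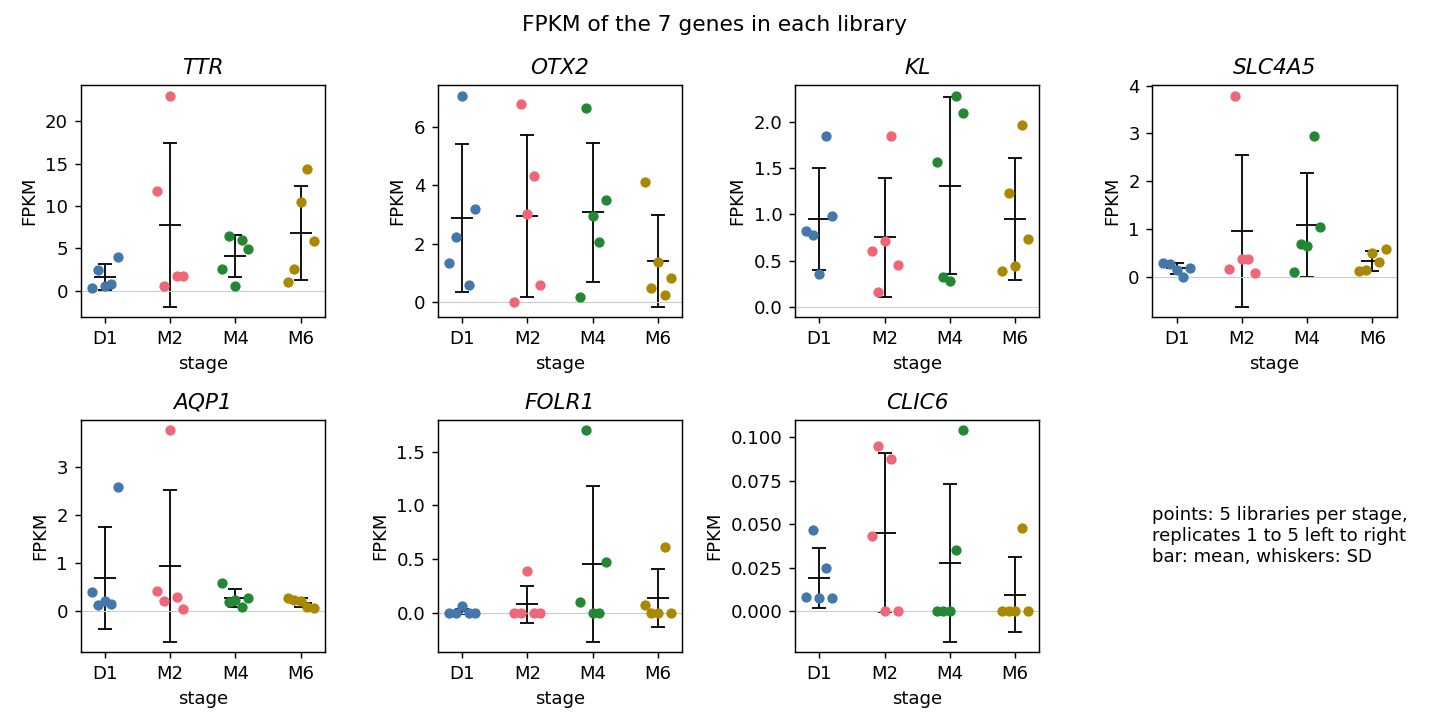
FPKM of TTR, OTX2, KL, SLC4A5, AQP1, FOLR1 and CLIC6 (y axis, own scale for each gene) in the 5 libraries of each stage (x axis), with the mean and SD as a bar with whiskers. The stages overlap for every gene, and single libraries stand far above the rest, such as M2 replicate 3 for TTR at 23.0 FPKM and AQP1 at 3.77 FPKM.

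TTR was the highest of the 7. In replicates 1 to 5, it was at 0.279, 2.40, 0.573, 0.830 and 4.02 FPKM at D1 and at 11.8, 0.506, 23.0, 1.77 and 1.71 FPKM at M2. At M4 it was at 2.53, 6.44, 0.611, 6.02 and 4.91 FPKM, and at M6 it was at 0.982, 2.61, 10.4, 14.3 and 5.84 FPKM. The highest library, M2 replicate 3, was thus 82.6 times the lowest, D1 replicate 1, and held 22.7% of the summed TTR FPKM. Low libraries occurred at each stage, and the D1 libraries lay within the range of the M2 libraries but for the lowest.

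The stage means of TTR were lowest at D1 with 1.62 ± 1.57 FPKM (SD, n = 5), followed by M4 with 4.10 ± 2.47, M6 with 6.84 ± 5.53 and M2 with 7.77 ± 9.68. On the log2(FPKM + 0.1) scale, its difference from D1 was 1.57 (SE 0.93) for M2, 1.45 (SE 0.93) for M4 and 2.02 (SE 0.93) for M6. The 95% interval of the last ran from 0.07 to 3.96. In limma across all genes, the Benjamini-Hochberg adjusted p were 0.416, 0.71 and 0.651, and none of these differences passed. Without M2 replicate 3 the difference in M2 vs. D1 was 0.90, and the difference in M4 vs. M2 turned from -0.12 to 0.56.

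OTX2, the transcription factor gene, was at 1.33, 2.23, 7.08, 0.586 and 3.19 FPKM in D1 replicates 1 to 5 and at 0, 6.78, 3.03, 4.33 and 0.572 FPKM in those of M2. It was at 0.167, 6.67, 2.95, 2.07 and 3.50 FPKM at M4 and at 4.10, 0.492, 1.36, 0.227 and 0.829 FPKM at M6. The libraries above 6 FPKM were 1 each at D1, M2 and M4, and M2 replicate 1, which was high for TTR, was listed at 0 for OTX2. The stage mean was lowest at M6 with 1.40 ± 1.57 FPKM (SD, n = 5), and those of D1, M2 and M4 were 2.88 ± 2.54, 2.94 ± 2.78 and 3.07 ± 2.37 FPKM. The largest difference between stages was -1.12 (SE 1.03) on the log2 scale in M6 vs. D1, with a limma adjusted p of 0.802.

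KL, the klotho gene, had the narrowest range of the 5 genes tested. It was at 0.819, 0.771, 0.351, 1.84 and 0.977 FPKM in D1 replicates 1 to 5 and at 0.599, 0.166, 0.707, 1.85 and 0.453 FPKM in those of M2. At M4 its FPKM were 1.56, 0.322, 0.277, 2.28 and 2.09, and at M6 they were 0.390, 1.24, 0.446, 1.97 and 0.733. Replicate 4 was the highest library at each of the 4 stages, though the numbers mark different goats. The stage means lay between 0.754 ± 0.643 FPKM (SD, n = 5) at M2 and 1.31 ± 0.958 at M4. Their difference on the log2 scale was 0.62 (SE 0.61, 95% interval from -0.66 to 1.90), with a limma adjusted p of 0.776.

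The bicarbonate cotransporter gene SLC4A5 was low at D1, with 0.292, 0.274, 0.131, 0 and 0.184 FPKM in replicates 1 to 5. At M2 it was at 0.163, 3.79, 0.369, 0.379 and 0.0841 FPKM, and at M4 it was at 0.0941, 0.690, 0.647, 2.94 and 1.05 FPKM. At M6 it was at 0.109, 0.147, 0.490, 0.30 and 0.589 FPKM. Of the M4 libraries, 4 were above every D1 library and 1 was below 4 of them. The difference in M4 vs. D1 was 1.74 (SE 0.74, 95% interval from 0.19 to 3.29) on the log2 scale, with means of 1.08 ± 1.09 and 0.176 ± 0.119 FPKM (SD, n = 5). Its unadjusted p was 0.0293 and its adjusted p 0.522 in limma, so that it did not pass over all genes tested. Without M4 replicate 4 the difference was 1.27.

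AQP1, the water channel gene, was at 0.381, 0.109, 0.198, 0.143 and 2.59 FPKM in D1 replicates 1 to 5 and at 0.403, 0.203, 3.77, 0.289 and 0.0284 FPKM in those of M2. It was at 0.581, 0.181, 0.218, 0.0712 and 0.265 FPKM at M4 and at 0.269, 0.224, 0.194, 0.0716 and 0.0627 FPKM at M6. D1 replicate 5 and M2 replicate 3 were the 2 libraries above 1 FPKM, and M2 replicate 3 held 36.8% of the summed AQP1 FPKM. Stage means of 0.685 ± 1.07 FPKM (SD, n = 5) at D1 and 0.939 ± 1.59 at M2 stood above 0.263 ± 0.191 at M4 and 0.164 ± 0.0926 at M6. On the log2 scale the difference was -0.86 (SE 0.76) in M6 vs. D1 and -0.98 (SE 0.76) in M6 vs. M2, with limma adjusted p of 0.793 and 0.772. Without these 2 libraries both differences were nearer to 0, at -0.22 and -0.24.

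FOLR1 and CLIC6 were at or near 0 in most libraries. FOLR1, the folate receptor gene, was listed at 0 in 13 of 20 libraries and reached 0.1 FPKM in 4, namely M4 replicate 2 with 1.70, M6 replicate 4 with 0.611, M4 replicate 5 with 0.470 and M2 replicate 3 with 0.386 FPKM. M4 replicate 2 alone held 50.0% of its summed FPKM. CLIC6 was listed at 0 in 9 libraries, and its highest value was 0.104 FPKM, in M4 replicate 5. Both were below the minimum for testing, which was 0.1 FPKM in at least 5 libraries. With no minimum, the largest difference of FOLR1 was 1.40 (SE 0.75) in M4 vs. D1 and that of CLIC6 was -0.36 (SE 0.22) in M6 vs. M2 on the log2(FPKM + 0.1) scale. Their adjusted p in limma over 21071 genes were 0.685 and 0.811. The pseudocount shrinks differences of genes this low.

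Whether the 7 genes can stand for the plexus in a dissection depends on whether they have high and low libraries in common, which was looked at as their correlation across the 20 libraries. The 7 genes did not all have the same high libraries. TTR and AQP1 were highest in M2 replicate 3, KL in M4 replicate 4, CLIC6 in M4 replicate 5, OTX2 in D1 replicate 3, FOLR1 in M4 replicate 2 and SLC4A5 in M2 replicate 2. Over the 21 pairs, Pearson's r of log2(FPKM + 0.1) ran from -0.36 for KL with OTX2 to 0.45 for CLIC6 with SLC4A5, with a median of 0.11, and 15 pairs were above 0. TTR with FOLR1, CLIC6 with SLC4A5 and OTX2 with SLC4A5 were the 3 pairs with an unadjusted p under 0.05 in permutations of the libraries. Each of them had an r of 0.45. After adjustment over the 21 pairs 0 passed, and the smallest adjusted p was 0.348. By Spearman's rho 0 pairs had an unadjusted p under 0.05.

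The 3 pairs were read again without the 2 libraries farthest from the median of the first gene. The r was then 0.36 for TTR with FOLR1, 0.11 for CLIC6 with SLC4A5 and 0.39 for OTX2 with SLC4A5. Spearman's rho over the 20 libraries was 0.36 (p = 0.122), 0.29 (p = 0.208) and 0.42 (p = 0.0638) in permutations of the libraries. CLIC6 with SLC4A5 thus rested on these libraries, and CLIC6 is near 0 throughout. With the stage means taken out of each gene, 0 pairs had an unadjusted p under 0.05, and the smallest adjusted p was 0.501. Each gene was also set against the mean of the other 6, and r ran from -0.02 for KL to 0.42 for FOLR1.

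**Figure D2:**
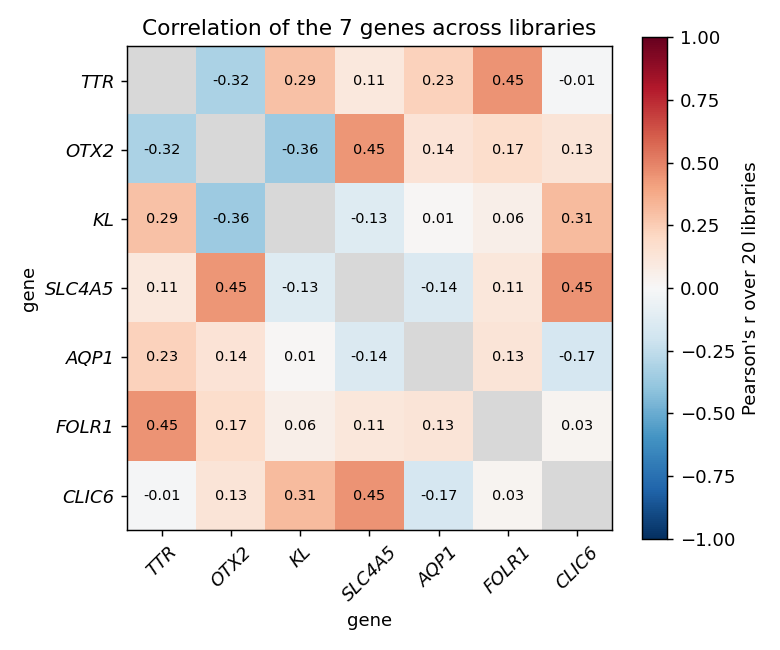
Pearson's r between the log2(FPKM + 0.1) of each pair of the 7 genes over 20 libraries, with the value in each cell and a color scale from -1 to 1. Of the 21 pairs, 15 are above 0 and none is above 0.45, and KL with OTX2 is lowest at -0.36.

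Gene lists of other cells and regions gave a measure of how closely genes of a list ran together in the same libraries. The median r between genes of a list was 0.06 over the 10 pairs of the 5 genes tested and 0.02 over all pairs of the 16771 genes tested. For 8 genes of ciliated ependyma, the lining of the ventricles, it was 0.63. It was 0.47 for 10 genes of meningeal fibroblasts and 0.48 for 6 of endothelium. For lists of regions rather than 1 cell type, it was 0.60 for 3 genes of the thalamus and 0.60 for 9 of the hypothalamus. It was 0.26 for 3 anterior pituitary genes and -0.25 for 3 hepatocyte genes, of which 0 reached a mean of 1 FPKM. For 4 genes of tanycytes, the ependymal cells of the hypothalamic floor, it was 0.08. For 38 genes of a wider choroid plexus list, described below, it was 0.03. A mean of at least 1 FPKM was reached by 2 of the 7 genes. Among the other lists it was reached by 5 of 8 ependymal, 9 of 10 meningeal and 6 of 6 endothelial genes, so that the lists were not alike in level. The medians of r are descriptions over the same 20 libraries, and differences between the lists were not tested. In bulk tissue, fewer cells of a type and less RNA per cell cannot be told apart.

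Variation between goats of 1 stage was nevertheless large for TTR and OTX2. The SD of log2(FPKM + 0.1) within stages was 1.80 for OTX2 and 1.64 for TTR, above those of 98.4% and 97.3% of the genes tested, whose median SD was 0.57. Set against genes with a mean within 2-fold of their own, OTX2 was above 97.6% and TTR above 98.2%. For AQP1, SLC4A5 and KL the SD were 1.26, 1.24 and 1.02, above 69.9%, 69.7% and 61.4% of genes of like mean. The share of the variance that lay between stages was 24.7% for SLC4A5, 21.1% for TTR, 10.7% for AQP1, 7.44% for OTX2 and 5.87% for KL, where the median gene had 18.2%.

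The mean log2(FPKM + 0.1) of the 7 genes in a library ran from -1.80 in M2 replicate 5 to 0.34 in M2 replicate 3. It was -1.15 ± 0.45 (SD, n = 5) at D1 and -1.0 ± 0.30 at M6, with -0.83 ± 0.81 for M2 and -0.54 ± 0.66 for M4 between them in age, and the stages overlapped. The summed FPKM of the 7 genes ran from 2.85 to 31.3. Because the genes did not run together, neither figure was read as an amount of choroid plexus, and the genes are described by name.

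Between stages, 0 of the 5 genes tested was called a DEG in any of the 6 comparisons, with an adjusted p under 0.05 and a log2 fold change of at least 1 either way in limma. Of the 16771 genes tested, the share called was 0.0537% for M4 vs. D1 and 0.00596% for M6 vs. D1. It was 0% for M2 vs. D1, for M6 vs. M2 and for the neighbouring stages M4 vs. M2 and M6 vs. M4, so that few genes of any kind passed. At an unadjusted p under 0.05, counted in either direction, 1 of the 5 genes passed in M4 vs. D1, which was SLC4A5, against 8.71% of all genes. TTR was the 1 gene in M6 vs. D1, against 7.41% of all genes. In the other 4 comparisons the number at an unadjusted p under 0.05 was 0. The shares of all genes there were 6.14% for M6 vs. M2, 6.87% for M6 vs. M4, 8.68% for M4 vs. M2 and 15.6% for M2 vs. D1. The groups of 5 libraries overlapped for each of the 5 genes in each comparison, and the share of all genes that overlapped was not counted.

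Intervals of the differences were wide. In M2 vs. D1 that of AQP1 ran from -1.46 to 1.69 and that of OTX2 from -2.76 to 1.53 on the log2 scale. For KL in M6 vs. D1 it ran from -1.34 to 1.22. A change in either direction of 2-fold or more was therefore within the interval for these genes, and the missing calls do not show that they stayed at 1 level. The median difference of the 5 genes from D1 was 0.12 for M2, 0.18 for M4 and -0.06 for M6. From M2 it was 0.55 for M4 and -0.47 for M6, and from M4 to M6 it was -0.39. The medians of all genes tested were between -0.07 and 0.04.

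**Figure D3:**
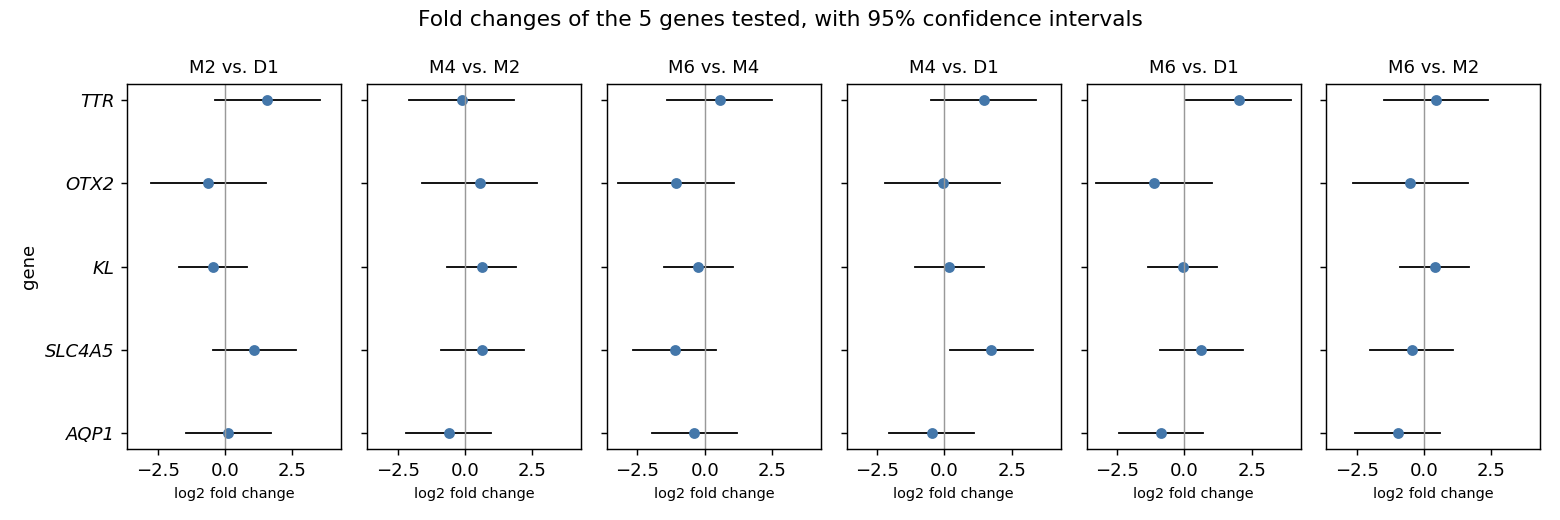
Log2 fold change (x axis) of TTR, OTX2, KL, SLC4A5 and AQP1 (y axis) in the 6 comparisons of stages from limma on log2(FPKM + 0.1), with points for the estimate and lines for the 95% confidence interval. The interval leaves out 0 for SLC4A5 in M4 vs. D1 and TTR in M6 vs. D1, before adjustment over all genes.

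A wider list of 45 genes known from the choroid plexus was read in the same way, of which 43 have deposited values and 38 were tested. Of the 43, 26 had a mean of at least 1 FPKM, while several others were at or near 0 in most libraries. CLDN2, a claudin of the leaky epithelial junction, was listed at 0 in 17 of 20 libraries with at most 0.0139 FPKM. KCNE2, a potassium channel subunit, was listed at 0 in 14 libraries and reached 2.97 FPKM in M2 replicate 1, where TTR was at 11.8. The organic anion transporter gene SLC22A8 was listed at 0 in 13 libraries and the epithelial keratin gene KRT18 in 14, each with its highest value in D1 replicate 5, and MFRP was at most 0.243 FPKM. TMEM72 and SOSTDC1 of the same list had medians of 1.13 and 1.55 FPKM and were below 0.1 FPKM in 1 library each. All genes named in this paragraph were picked after their values were seen.

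Other members were abundant, among them genes that neurons and glia are also known to use. Among ion transporters, ATP1B1, a sodium pump subunit gene, had a mean of 243 FPKM, and the chloride cotransporter gene SLC12A2 had 76.8 FPKM. For solute carriers they were 26.6 FPKM for the vitamin C transporter gene SLC23A2, 3.88 for the sulfate transporter gene SLC13A4 and 3.85 for ABCC4. The secreted group was led by ENPP2, which encodes autotaxin and is also made by oligodendrocytes, at 67.8 FPKM, followed by COL9A3 at 9.73 and IGFBP2 at 5.11. SPINT2 at 10.1, CLDN1 at 1.69 and KRT8 at 0.528 FPKM led the epithelial and junction genes. The 3 transcription factor genes were low, with FOXJ1 at 0.903, LMX1A at 0.382 and MSX1 at 0.367 FPKM. In the group of receptors and others, PCP4L1 led at 63.6 FPKM, with the serotonin receptor gene HTR2C at 5.46 and CALML4 at 4.61.

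**Figure D4:**
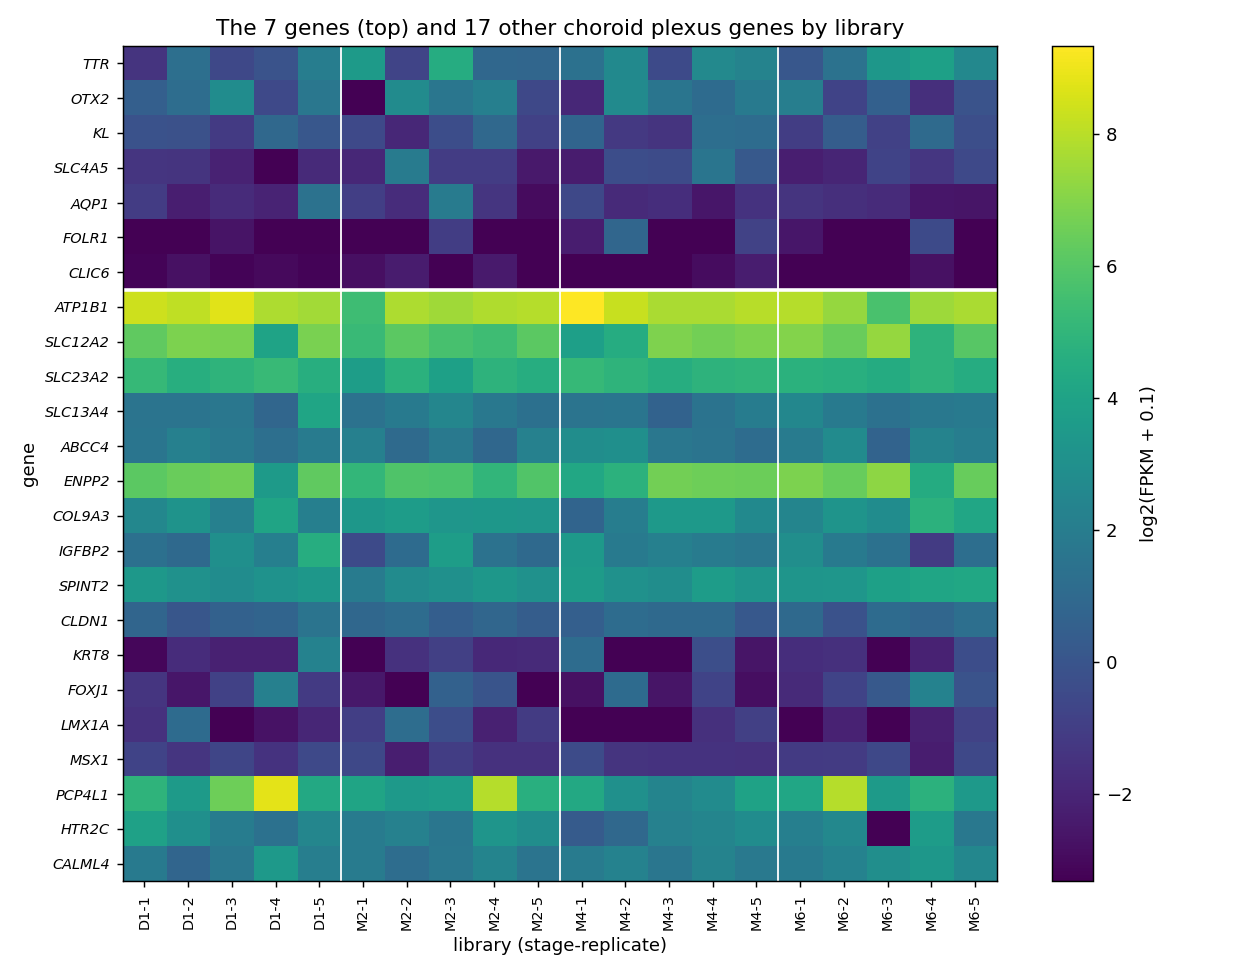
Log2(FPKM + 0.1) by color of the 7 genes (above the thick white line) and of the named genes of the 6 groups of the wider list (below it) in the 20 libraries (x axis, ordered by stage). TTR and AQP1 are both brightest in M2 replicate 3, the other 5 genes are each brightest in a library of their own, and ATP1B1, SLC12A2 and ENPP2 are bright in nearly all.

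None of the 38 wider genes tested was called in limma in any of the 6 comparisons, where 0 to 0.0537% of all genes were. Those at an unadjusted p under 0.05 numbered 2 for M2, 3 for M4 and 2 for M6 against D1, 3 each for M4 and M6 against M2, and 0 for M6 against M4. Of all genes tested, the same limit was passed by 15.6% for M2, 8.71% for M4 and 7.41% for M6 against D1, by 8.68% for M4 and 6.14% for M6 against M2, and by 6.87% for M6 against M4. By group, the median difference in M6 vs. D1 was 0.06 for the 11 ion transporters, -0.15 for the 8 solute carriers, 0.24 for the 7 secreted proteins and 0.13 for the 4 epithelial genes on the log2 scale. It was -0.19 for the 3 transcription factors and 0.23 for the 5 receptors and others, where the median of all genes was -0.05.

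CA12, a membrane-bound carbonic anhydrase gene named here after its values were seen, had the smallest p of the wider list. It was at 1.2, 6.27, 0.653, 2.16 and 1.67 FPKM in D1 replicates 1 to 5 and at 6.92, 7.0, 11.5, 9.43 and 6.56 FPKM in those of M6. At M2 it was at 11, 2.73, 13.5, 5.27 and 5.59 FPKM, and at M4 it was at 2.23, 11.3, 9.48, 4.77 and 6.36 FPKM. The share of all genes without overlap between stages was not counted. For CA12, the only 1 of the 38 wider genes tested without overlap in M6 vs. D1, every M6 library was above every D1 library. Without that share, this is not read as a trait of CA12. Its M2 and M4 libraries overlapped with those of D1. Its difference from D1 was 2.11 (SE 0.51) at M6, 1.81 (SE 0.51) at M2 and 1.67 (SE 0.51) at M4 on the log2 scale, with limma adjusted p of 0.245, 0.148 and 0.313. None passed, and 0.00596% of all genes did in M6 vs. D1. With library quality weights, which give poorly fitting libraries less influence, CA12 was called in M6 vs. D1 (2.09, SE 0.48, limma adjusted p = 0.0445), where 0.566% of all genes then were.

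Single libraries stood out in the wider list. D1 replicate 5 was the highest of the 20 libraries for 11 of the 43 wider genes, or 25.6%, against 3.6% of all genes tested. Among them, named after their values were seen, were SLC13A4 at 17.2 FPKM, the potassium channel gene KCNJ13 at 5.96, the keratin genes KRT8 at 4.86 and KRT18 at 1.28, SLC22A8 at 1.36, IGF2 at 3.17 and IGFBP2 at 23.2 FPKM. M2 replicate 3 was highest for 6 of the 43, or 14%, against 8.50% of all genes tested. The 43 include genes below the minimum for testing, such as SLC22A8 and KRT18, whereas the shares beside them are of genes tested. These 2 libraries also had the highest summed FPKM of 10 meningeal fibroblast genes, 373 in D1 replicate 5 and 338 in M2 replicate 3. The part of meningeal cells in the values of the wider genes was not tested. In D1 replicate 5, TTR was at 4.02 FPKM, AQP1 at 2.59, FOLR1 at 0 and CLIC6 at 0.00797. OTX2 was at 3.19 FPKM and KL at 0.977 in this library, each the second highest of the 5 D1 values, and SLC4A5 was at 0.184.

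Markers of meningeal fibroblasts moved with AQP1. The summed FPKM of 10 such genes was 373 in D1 replicate 5 and 338 in M2 replicate 3, against 28.5 to 139 in the other 18 libraries. Between log2(FPKM + 0.1) of AQP1 and the mean of these markers over the 20 libraries, Pearson's r was 0.79 (permutation p = 0.00042, adjusted p = 0.0235) and Spearman's rho 0.52 (permutation p = 0.0206, adjusted p = 0.464). In all 56 such relations were computed, 7 genes with 8 lists, chosen once the values had been looked at, and this was the only 1 with an adjusted p of r under 0.05. Without D1 replicate 5 and M2 replicate 3, r was 0.37, so that the relation rests on these 2 libraries. With stage means taken out it was 0.80 (permutation p = 0.00193, adjusted p = 0.108). AQP1 had r = 0.49 with the endothelium list (permutation p = 0.0259, adjusted p = 0.438) and rho = 0.39, and r = 0.08 without D1 replicate 5 and M2 replicate 3. The summed FPKM of the endothelium genes was 129 in M2 replicate 3 and 29.4 to 80.3 in the other 19 libraries. With the anterior pituitary list AQP1 had r = 0.48 (permutation p = 0.0495, adjusted p = 0.438) and rho = 0.14, and r = -0.03 without those 2 libraries. The part that meningeal or endothelial cells had in the AQP1 values was not tested.

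**Figure D5:**
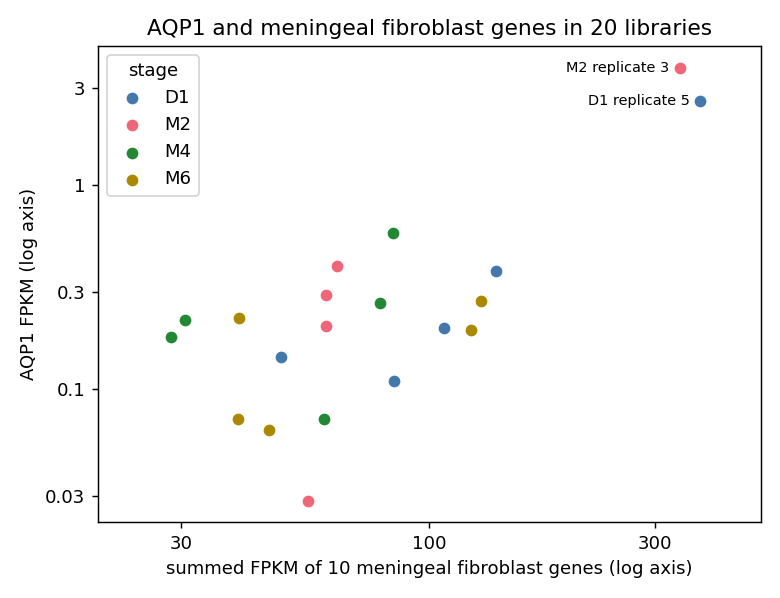
AQP1 FPKM (y axis, log) against the summed FPKM of 10 meningeal fibroblast genes (x axis, log) in the 20 libraries, colored by stage. D1 replicate 5 and M2 replicate 3 stand apart at the upper right, with AQP1 at 2.59 and 3.77 FPKM, and the other 18 libraries are all below 1 FPKM.

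For the other 6 genes no relation with a marker list passed. TTR had r = 0.38 and rho = 0.53 with the ciliated ependyma list (permutation p = 0.101 and 0.0172, adjusted p = 0.656 and 0.464). FOLR1 had r = 0.50 with the same list (permutation p = 0.0242, adjusted p = 0.438) and rho = 0.28. OTX2 had r = -0.44 with the hypothalamus list (permutation p = 0.0512, adjusted p = 0.438), and SLC4A5 had r = -0.45 with the tanycyte list (permutation p = 0.0487, adjusted p = 0.438). The M4 library with most FOLR1, replicate 2, also had the highest summed FPKM of ciliated ependyma genes at M4, at 45.9, and the highest of thalamus genes, at 113. Their part in its FOLR1 was not tested.

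Lists of markers of further tissues near the hypothalamus were read as well. Over the 8 anterior pituitary genes with deposited values the summed FPKM was at most 5.75, in M2 replicate 3, the library highest in TTR and AQP1. The prolactin gene PRL had no match and is not in this sum. GH1 and TSHB were each listed at 0 in 19 of 20 libraries, and CGA, the common hormone subunit gene, was highest in M2 replicate 3 at 2.12 FPKM. CRX, a pineal gene that OTX2 is known to switch on, was listed at 0 in all 20. Other pineal genes were measured in some libraries. AANAT was listed at 0 in all 20 under 1 gene ID and reached 1.36 FPKM in M4 replicate 3 under another. ASMT reached 0.799 FPKM in M2 replicate 3, and TPH1 reached 0.775 in M4 replicate 2. The summed FPKM of the pineal genes was at most 1.49, also in M2 replicate 3. The part of pineal tissue in the values was not tested. Liver genes were read because hepatocytes make most of the transthyretin in blood. ALB was at most 1.46 FPKM and FGB at most 0.191, while AHSG was listed at 0 in 7 libraries and reached 4.83 FPKM in D1 replicate 3, where TTR was at 0.573. Red cells are known to carry the AQP1 water channel. The summed FPKM of the 3 red cell genes ran from 1.55 to 3.73 in the D1 libraries and from 0 to 2.32 in the other 15. SLC4A1 was at most 0.0777 FPKM, AHSP had a median of 0.914 and a highest value of 2.3, and ALAS2 was listed at 0 in 9 libraries and reached 2.75, where the median of AQP1 was 0.21 FPKM. The part of red cells in the AQP1 values was not tested. Of the 6 tanycyte genes, RAX was at most 0.129 FPKM and GPR50 was listed at 0 in 19 libraries. The other 4 were measured well, with medians of 2.64 FPKM for CRYM, 4.58 for DIO2, 2.51 for COL25A1 and 4.72 for FRZB, and CRYM reached 74.5 FPKM in D1 replicate 4. Among all these lists the only gene called in any comparison was ALAS2, the heme synthesis enzyme gene of the red cell lineage, named after its values were seen. It fell by 3.27 (SE 0.48) in M4 vs. D1 and by 3.27 (SE 0.48) in M6 vs. D1 on the log2 scale, with limma adjusted p of 0.00694 and 0.0213. Of all genes tested, 0.0537% were called in M4 vs. D1 and 0.00596% in M6 vs. D1. ALAS2 was at 0.940, 2.75, 1.40, 0.548 and 0.381 FPKM in D1 replicates 1 to 5. It was at most 0.0645 FPKM at M4 and 0.0393 at M6, so that the size of its fall depends on the pseudocount of 0.1.

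The genes whose pattern was most like the mean of the 7 genes were ranked by Pearson's r over 20 libraries, among 15998 genes that reached 1 FPKM in some library, as a description with no test. They were COLQ with r = 0.76, P2RY14 with 0.71, TTC6 with 0.68, C1S with 0.67, XLOC_068314 with 0.67, ITGA5 and MEDAG with 0.65 each, MORC4 with 0.64, PXT1 with 0.63 and ACSL5 with 0.62. M2 replicate 3 was the highest library for 7 of these 10, as it was for TTR and AQP1 and for 8.50% of all genes tested. The mean of the 7 genes was itself highest in M2 replicate 3, so that this count follows in part from the ranking. None of the 10 is of the wider choroid plexus list. Of the 36 wider genes ranked, 24 had r above 0, with a median of 0.11 against -0.02 over all genes ranked. For all genes, 52.5% lay below ATP1B1 with r = -0.009 and 55.2% below CALML4 with r = 0.007. The wider genes were spread from PCP4L1 with -0.35, above 6.52% of genes, to the sodium pump regulator gene FXYD1 with 0.54, above 99.6%.

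Each of the 5 genes tested had its own closest genes, which were looked up after the data were seen. The closest to TTR was ZNF839 with r = 0.79, to KL it was CREG1 with 0.82, to OTX2 it was IGSF3 with 0.79 and to SLC4A5 it was KCTD6 with 0.80. Closest to AQP1 were OSR1 with 0.85, SFRP4 with 0.83 and the smooth muscle actin gene ACTA2 with 0.81. The matrix gene MGP and LOC102168295 followed with 0.80 each. Without the 2 libraries farthest from the median AQP1 level, these were 0.40, 0.34, 0.73, 0.39 and 0.51 in this order. ACTA2 and LOC102168295 thus kept an r above 0.5. The closest genes were looked for outside the 7, among whose pairs the highest r was 0.45.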

How the data were processed

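RNA of 20 goat hypothalami (5 per stage) was sequenced as strand-specific libraries depleted of rRNA. The authors trimmed reads with fastp, aligned them with HISAT2 2.0.5 to the ARS1.2 goat genome and calculated the deposited FPKM values of genes with StringTie 1.3.3b, which scale fragments by exon length and by mapped reads. FPKM keep no count of reads, and a gene that takes a large share of a library lowers the FPKM of the others. A ratio shared by many low genes between 2 libraries was looked for as a sign of whole reads. Of 553 genes above 0 and below 0.1 FPKM in both D1 replicate 1 and D1 replicate 2, 13 had the most common ratio, within 0.2%. The number of reads behind each value was therefore not recovered.

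Gene IDs were paired with symbols and positions through the RefSeq annotation of ARS1.2, where 20610 of 21071 matched. The genes described, the wider choroid plexus list and the marker lists were chosen with earlier results of these data known. CA2 and ACE of the wider list, PRL of the anterior pituitary list and SERPINA1 of the hepatocyte list had no match. Testing was limited to the 16771 genes that reached 0.1 FPKM in 5 or more libraries. Log2(FPKM + 0.1) was modelled by stage in limma 3.58.1 (R 4.3.3) with trended moderated variances over the 20 libraries, and Benjamini-Hochberg adjustment covered every gene tested. The fit and the permutation test were tested on simulated data. Named genes are the 7 genes, the 3 genes with the highest mean FPKM in each group of the wider list because none was called (1 of them is not reported here), and the 10 genes most like the mean of the 7, and others are marked where they are named. Correlations had 100000 permutations of libraries, two-sided. Python 3.11.15, pandas 2.3.3, numpy 2.4.6, scipy 1.17.1 and matplotlib 3.10.9 were used. The settings varied were the pseudocount (1 or 0.01), the filter (none, or a mean of 1 FPKM), the scaling (quantile or median-ratio), the variance trend, weights for library quality, a replicate block, the libraries fitted, and the fold threshold. Each library was also left out in turn. Leaving out D1 replicate 5 with M2 replicate 3 was added after the data were seen. No sequences of the genes were used here.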

Additional observations from a re-analysis of the deposited data

Results flagged for a closer look

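In 8 of the 28 groups of 5 libraries (7 genes at 4 stages), 1 library lay apart from the other 4 by Dixon's criterion, which chance would meet in about 1 in 20 groups of normal values. Values of low genes with many zeros are not normal. For AQP1 these were D1 replicate 5 with 2.59 FPKM and M2 replicate 3 with 3.77 FPKM, the libraries with the highest summed FPKM of meningeal fibroblast genes. For SLC4A5 it was M2 replicate 2 with 3.79 FPKM. FOLR1 had such a library at each stage, with 0.0613 FPKM in D1 replicate 3, 0.386 in M2 replicate 3, 1.70 in M4 replicate 2 and 0.611 in M6 replicate 4. For CLIC6 it was M6 replicate 4 with 0.0481 FPKM, where the other 4 libraries of M6 were listed at 0. TTR, KL and OTX2 had none.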

How the results depend on the processing

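The number of the 7 genes called was 0 in each comparison under every alternative, the replicate block included, and the number of correlated pairs stayed at 0. Over the 912 fold changes under alternatives, the smallest adjusted p in limma was 0.197, for SLC4A5 in M4 vs. D1 with library quality weights. The number of wider genes called was 0 throughout except for 1 (CA12) in M6 vs. D1 with library quality weights. Deviations from the stage means over all genes tested were correlated between libraries of different stages. Same-numbered libraries had correlations between -0.25 and 0.43, and 7 of 30 were above 0.1. Among libraries that differ in number, D1 replicate 4 had 0.42 with M4 replicate 1 and 0.41 with M6 replicate 2. M2 replicate 4 had 0.40 with M4 replicate 1. The share of differently numbered pairs above 0.1 was not counted. The numbers were not taken as pairs in the main fit, and handling shared by number was not tested. The replicate block gave 0 calls. Directions of uncalled fold changes were less stable, and 40 of the 912 values, in 16 of 30 fold changes, turned. The cause was not tested. AQP1 in M2 vs. D1 was -0.0043 with a pseudocount of 0.01, -0.021 with quantile normalization and -0.90 with library quality weights. Under these weights AQP1 was 0.22 for M4 and 0.23 for M6 against M2 and 0.0064 for M6 against M4, TTR was 1.08 in M4 vs. M2 and -0.46 in M6 vs. M4, and KL was 0.022 in M6 vs. D1. OTX2 was 0.054 in M4 vs. D1 with a pseudocount of 1 and 0.020 in M6 vs. M2 with 0.01. Without D1 replicate 5 and M2 replicate 3, TTR was 0.56 and AQP1 0.15 in M4 vs. M2, and AQP1 was 0.17 and OTX2 0.08 in M4 vs. D1. With each library left out in turn, AQP1 ran from -0.63 to 0.76 in M2 vs. D1, from -1.08 to 0.15 in M4 vs. M2 and from -0.76 to 0.17 in M4 vs. D1. OTX2 ran from -1.18 to 0.35 in M2 vs. D1, from -0.42 to 1.3 in M4 vs. M2, from -0.49 to 0.68 in M4 vs. D1 and from -1.47 to 0.052 in M6 vs. M2. TTR ran from -0.76 to 0.56 in M4 vs. M2 and from -0.19 to 1.12 in M6 vs. M2, and SLC4A5 from -0.85 to 0.25 in M6 vs. M2. KL ran from -0.11 to 0.55 in M4 vs. D1, from -0.36 to 0.20 in M6 vs. D1 and from -0.61 to 0.055 in M6 vs. M4. The range of the mean level of the 7 genes over libraries, 2.14 on the log2 scale, was 1.11 with a pseudocount of 1, which compresses low values. The 5 goats per stage and the spread between them limit what could be called, and the number of reads behind the values near 0 was not recovered.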
